A study of Mus musculus with 4 samples.

Results

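The 8 genes described here, Cldn5, Ocln, Tjp1, Cdh5, Esam, Cav1, Cav2 and Plvap, encode the junctions between endothelial cells and the caveolae and vesicle diaphragms within them. They were chosen by name, and every probe set annotated with exactly 1 of these symbols was read, which gave 11 probe sets for 8 of the 18194 genes named on the array. Where a gene had several, the brightest (by mean log2 signal of all 4 arrays) gave its value. RNA of mouse cerebrum was measured in 4 pools on Affymetrix Mouse 430 2.0 arrays, 1 array per pool, each pool holding RNA of 5 to 6 hemisected cerebrums in equal amounts. The 2aECKO pool was taken at postnatal day 9 from Mfsd2afl/fl mice carrying Tie2-cre, and its control at the same age from Mfsd2afl/fl mice without cre (2afl/fl). The 2aiECKO pool was taken at postnatal day 8 from 4-OHT-treated Mfsd2afl/fl mice carrying the 4-OHT-inducible Cdh5ERT2-cre. Its control was taken at that age from 4-OHT-treated Mfsd2afl/fl mice (2afl/fl 4-OHT). All 4 pools thus carried the floxed Mfsd2a allele. The Tie2 promoter is also active in cells of the blood lineage, and the inducible cre is driven by the promoter of Cdh5, itself 1 of the 8 genes. For the 2aiECKO pool 1 label, the source name, says 2aECKO; the title and genotype labels, which say 2aiECKO, were followed.

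Brain endothelial cells are held together by tight junctions, in which the membrane proteins claudin-5 and occludin are tied to the actin cytoskeleton through the scaffold ZO-1, and by adherens junctions built on VE-cadherin. The same cells keep vesicular transport low: caveolae, coated by caveolins and cavins, are few, and the diaphragm protein Plvap is lost as the barrier matures. Mfsd2a carries lysophosphatidylcholine across this endothelium. Leak of the barrier through vesicles, and its relief when caveolin-1 is removed, have been described for mice lacking Mfsd2a throughout the body, so RNA of junction and caveola genes was read here in the endothelial knockouts. The arrays measured RNA of whole cerebrum and gave no value for leak, protein or vesicle number.

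The median signal was 75.5 in 2aECKO and 74.1 in 2afl/fl, against 49.2 in 2aiECKO and 48.7 in 2afl/fl 4-OHT, so the pairs lie on different scales and every fold was taken within a pair. With 1 array per group there are no replicates and no test, and precision is limited by the number of arrays. Spread over genes was used as the yardstick instead. Where the mean signal of a pair reached 50, the robust SD of the log2 fold was 0.12 in 2aECKO over 13038 genes and 0.10 in 2aiECKO over 11926 genes, with median folds of -0.01 and 0.00. For genes with a pair of probe sets of that brightness, the log2 folds of the brightest and the next differed by a median of 0.08 in 2aECKO and 0.07 in 2aiECKO. Mfsd2a itself, the targeted gene, had a signal of 410 in 2aECKO and 423 in 2afl/fl, a log2 fold of -0.05, and of 299 in 2aiECKO and 369 in 2afl/fl 4-OHT, a log2 fold of -0.30. It has a single probe set, and where that lies relative to the floxed exons is not stated in the sources used here, so it does not check the genotype labels. The paper also describes Mfsd2a RNA in oligodendrocyte lineage cells and astrocytes, whose part in these values was not tested. It reports reduced Mfsd2a protein in brain lysates of 2aECKO mice, for which its text and figure caption give different ages. It also reports less of the protein in cortical vessels of 2aiECKO mice, at a later age than the pool here. Neither measures deletion in these pools.

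None of the 8 genes passed a fold of 1.25 upward or 0.8 downward in either knockout. All 8 had a signal of at least 50 in all 4 pools at their brightest probe set. To be called higher, a gene needed 1.25 times its control's signal (0.32 on the log2 scale) and 50 or more in the knockout pool; to be called lower, 0.8 times its control's signal or less and 50 or more in the control pool. The upward rule is the study's, and the downward rule is its mirror image, set here. Each share given next is of the genes on the array that met the signal limit of its rule. In 2aECKO 0 of the 8 were higher, against 2.24 percent of such genes, and 0 were lower, against 1.76 percent. In 2aiECKO 0 were higher, against 1.90 percent, and 0 were lower, against 0.604 percent. With shares this small, a count of 0 among 8 genes is near that background. The log2 folds of the 8 ran between -0.06 for Cav2 and 0.14 for Cav1 in 2aECKO, with a median of 0.06 and 5 of the 8 above 0. In 2aiECKO they ran between -0.14 for Esam and 0.10 for Tjp1, with a median of -0.03 and 3 of the 8 above 0.

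**Figure D1:**
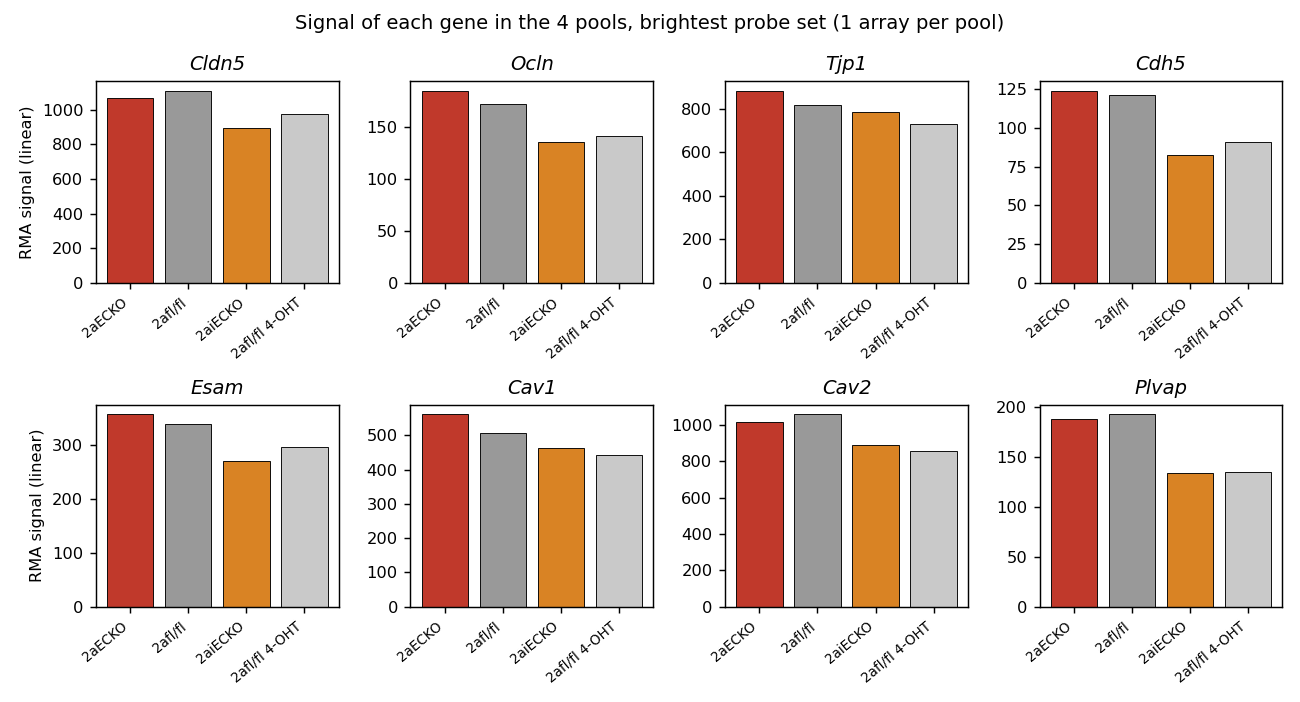
RMA signal on a linear scale (vertical axis, starting at 0) of the 8 genes at their brightest probe set; each bar is 1 array of pooled cerebrum RNA, in the order 2aECKO, 2afl/fl, 2aiECKO and 2afl/fl 4-OHT. Within each pair the bars of all 8 genes stand close together, and levels are not comparable between panels or between the pairs.

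**Figure D2:**
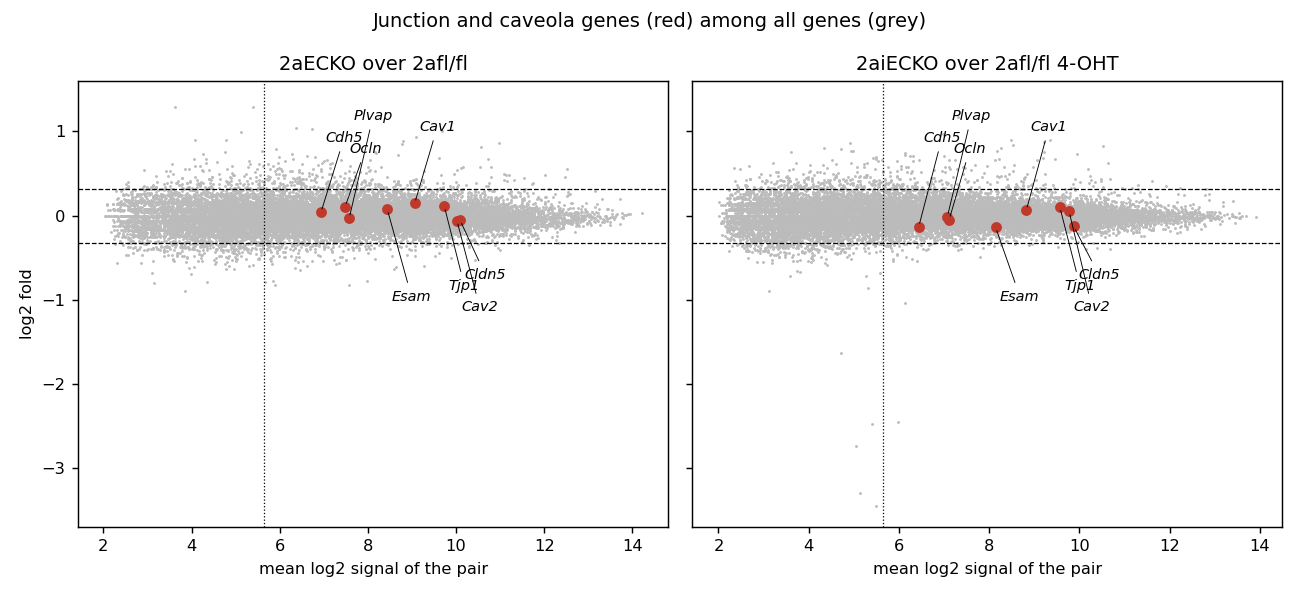
Log2 fold (vertical axis) against the mean log2 signal of the pair (horizontal axis) for 18194 genes (grey) and the 8 junction and caveola genes (red), 1 pooled array per group; dashed lines mark folds of 1.25 and 0.8 and the dotted line a signal of 50. In both panels all 8 genes lie to the right of the dotted line and between the dashed lines.

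Cldn5 encodes claudin-5, the main claudin of brain endothelium. Its single probe set gave a signal of 1069 in 2aECKO and 1110 in 2afl/fl, a log2 fold of -0.05. In 2aiECKO the signal was 896, against 978 in 2afl/fl 4-OHT, a log2 fold of -0.13. Cldn5 was thus the lower value of the pair in both knockouts, by 0.963-fold and 0.916-fold. Folds of at least this size in either direction were seen in 64.7 percent of genes in 2aECKO and 23.6 percent in 2aiECKO.

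Ocln, which encodes the tetraspan junction protein occludin, had a pair of probe sets. The brighter gave signals of 185 in 2aECKO and 172 in 2afl/fl, a log2 fold of 0.10, and of 136 in 2aiECKO and 141 in 2afl/fl 4-OHT, a log2 fold of -0.05. The other gave 104 in 2aECKO and 90.6 in 2afl/fl, a log2 fold of 0.19, and 88.3 in 2aiECKO and 83.0 in 2afl/fl 4-OHT, a log2 fold of 0.09. The probe sets therefore had the same sign in 2aECKO and opposite signs in 2aiECKO. Choroid plexus epithelium also makes occludin, and its 8 markers had a summed signal of 15090 in 2aECKO and 13067 in 2afl/fl, and of 12133 in 2aiECKO and 10771 in 2afl/fl 4-OHT. Most of each sum came from 1 marker, Ttr, with 14391, 12500, 11583 and 10292 in the same order. Of the 8 markers 3 were higher in 2aECKO, 1 was higher in 2aiECKO and 0 were lower. The part of choroid plexus in the Ocln values was not tested.

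Tjp1 encodes ZO-1, the scaffold that binds claudin tails and is made in many cell types besides endothelium. Its signal was 884 in 2aECKO and 818 in 2afl/fl, a log2 fold of 0.11. In 2aiECKO it was 785, against 731 in 2afl/fl 4-OHT, a log2 fold of 0.10. Tjp1 and Cav1 were the only members of the 8 above their control in both knockouts at the brightest probe set. In 2aiECKO Tjp1 was the highest of the 8, with 83.7 percent of genes at or below its fold.

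Cdh5 and Esam encode adhesion proteins largely restricted to endothelium, VE-cadherin of the adherens junction and an immunoglobulin-like molecule of the tight junction. Cdh5 had a signal of 124 in 2aECKO and 121 in 2afl/fl, a log2 fold of 0.04, and of 82.8 in 2aiECKO and 90.8 in 2afl/fl 4-OHT, a log2 fold of -0.13. Esam had a signal of 356 in 2aECKO and 338 in 2afl/fl, a log2 fold of 0.08. In 2aiECKO Esam gave 269, against 296 in 2afl/fl 4-OHT, a log2 fold of -0.14. The folds of both genes were above 0 in 2aECKO and below 0 in 2aiECKO, and in 2aiECKO 9.97 percent of genes lay at or below Cdh5 and 9.09 percent at or below Esam. A second Cdh5 probe set had signals of 19.3 in 2aECKO, 18.2 in 2afl/fl, 13.4 in 2aiECKO and 11.6 in 2afl/fl 4-OHT, all below 50, with log2 folds of 0.08 and 0.21. Over the mean of both probe sets Cdh5 in 2aiECKO moved to 0.04, so its sign depended on the dim probe set. The 2aiECKO pool also carried the cre transgene driven by the Cdh5 promoter, and whether the probe sets read any RNA of it was not tested.

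At their brightest probe sets Cldn5, Cdh5 and Esam had the lowest folds of the 8 in 2aiECKO. Plvap, also made by endothelium but a mark of permeable vessels, stood at -0.01, and Cav1 and Cav2 at 0.06 and 0.05. That order did not hold over the mean of probe sets, where Cdh5 was above 0, nor with the controls exchanged, where Plvap was lowest at -0.10 and Esam stood at 0.02. In the same pool the endothelial markers chosen as a list had a median log2 fold of -0.04, with 7 of 12 genes of sufficient signal below 0, between -0.24 for Tek and 0.21 for Slco1a4. Their summed signal over 13 matched genes was 2531 in 2aiECKO and 2556 in 2afl/fl 4-OHT, and 3720 in 2aECKO and 3557 in 2afl/fl. In 2aECKO the median of the list was 0.05. All 13 had a signal above 0 in every pool, as RMA gives each probe set a positive value. The number of endothelial cells and the RNA per endothelial cell cannot be told apart in RNA of whole cerebrum. Pericyte and smooth muscle markers had a median of -0.08 in 2aiECKO, with 2 of 10 lower. Of the 8 with sufficient signal 5 lay below 0 and 3 above, between -0.39 for Abcc9 and 0.25 for Pdgfrb. Their summed signal was 3397 in 2aiECKO and 3650 in 2afl/fl 4-OHT, of which Rgs5 alone gave 1660 and 1949. Microglial markers had a median of 0.40 in 2aiECKO, with 5 of 9 matched genes higher. Their summed signal was 4466 in 2aiECKO against 3226 in 2afl/fl 4-OHT. The part of these cells in the values of Cldn5, Cdh5 and Esam was not tested.

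Cav1 encodes caveolin-1, without which endothelial caveolae do not form, and Cav2 encodes its partner caveolin-2. They are adjacent protein-coding genes on the same strand. Cav1 had a signal of 561 in 2aECKO and 507 in 2afl/fl, a log2 fold of 0.14, the largest of the 8 in that knockout, reached or passed in size by 25.3 percent of genes. In 2aiECKO it had 462, against 443 in 2afl/fl 4-OHT, a log2 fold of 0.06. Cav2 had 1016 in 2aECKO and 1058 in 2afl/fl, a log2 fold of -0.06, and 889 in 2aiECKO and 858 in 2afl/fl 4-OHT, a log2 fold of 0.05. So the neighbours lay on opposite sides of 0 in 2aECKO and on the same side in 2aiECKO, in each case by about the spread over genes or less. The dimmer Cav2 probe set gave 46.7 in 2aECKO and 52.7 in 2afl/fl, a log2 fold of -0.17, and 50.5 in 2aiECKO and 45.7 in 2afl/fl 4-OHT, a log2 fold of 0.14, with the same signs as the brighter. Fibroblasts of the meninges also make caveolins, and 3 of their 8 markers were higher in 2aECKO and 0 were lower. Of the 8 markers 6 lay above 0 and 2 below, between -0.18 for Igfbp2 and 0.74 for Col1a1, a collagen gene. Their summed signal was 7497 in 2aECKO and 6538 in 2afl/fl, of which Col1a2, also a collagen gene, gave 2127 and 1337. In 2aiECKO 1 of the 8 was higher and the summed signal was 4549, against 4574 in 2afl/fl 4-OHT. The part of meningeal tissue in the Cav1 values was not tested.

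The bases upstream of Cav1, Cav2 and Cldn5 are shown because the caveolin genes are neighbours and Cldn5 is the claudin that defines the barrier. Each is the 250 bases before the annotated start, 5′ to 3′ on the strand of the gene, which is the plus strand for all 3, from the RefSeq annotation of GRCm38.p6, at chr6:17306085-17306334 for Cav1, at its first annotated start, chr6:17280935-17281184 for Cav2 and chr16:18776597-18776846 for Cldn5. Capitals mark GGAA on either strand (TTCC when read on the strand shown), the core bound by ETS factors, a family that includes regulators of endothelial genes.
Cav1: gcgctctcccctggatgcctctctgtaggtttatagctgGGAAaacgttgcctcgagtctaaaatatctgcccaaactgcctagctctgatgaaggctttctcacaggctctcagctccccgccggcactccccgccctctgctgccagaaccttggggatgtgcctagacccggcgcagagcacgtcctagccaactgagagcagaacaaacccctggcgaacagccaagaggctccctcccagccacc
Cav2: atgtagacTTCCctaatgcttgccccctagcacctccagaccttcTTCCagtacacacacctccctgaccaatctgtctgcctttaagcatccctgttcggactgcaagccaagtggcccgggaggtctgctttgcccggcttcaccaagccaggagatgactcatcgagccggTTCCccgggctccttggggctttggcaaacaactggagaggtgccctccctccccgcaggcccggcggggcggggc
Cldn5: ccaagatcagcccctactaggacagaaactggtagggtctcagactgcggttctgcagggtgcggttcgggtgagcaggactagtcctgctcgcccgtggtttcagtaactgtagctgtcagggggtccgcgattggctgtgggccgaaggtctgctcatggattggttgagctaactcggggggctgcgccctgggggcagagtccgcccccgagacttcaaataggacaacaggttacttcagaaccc
Over all 32851 upstream windows of this length, 93.4 percent held at least 1 match to GGAA, and the median was 3 matches. Cav1 held 1 match at this start and 3 at its second annotated start (chr6:17307390-17307639), Cav2 held 3 and Cldn5 held 0. None of these windows held CTTTGA or CTTTGT, read by TCF and LEF factors of the Wnt pathway (27.6 percent of all windows), or CACGTG, an E-box (6.02 percent), searched on both strands. A match describes letters and is no evidence of binding, and a missing match says only that these letters are not in this window.

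Plvap encodes the protein of the diaphragms that span caveolae and fenestrae, and marks permeable vessels such as those of the choroid plexus. Its signal was 188 in 2aECKO and 193 in 2afl/fl, a log2 fold of -0.03. In 2aiECKO it was 134, against 135 in 2afl/fl 4-OHT, a log2 fold of -0.01. Plvap had the smallest fold of the 8 in both knockouts, and 77.1 percent of genes in 2aECKO and 88.3 percent in 2aiECKO had a fold at least as large. Markers of choroid plexus epithelium had medians of 0.27 in 2aECKO and 0.15 in 2aiECKO. The part of choroid plexus vessels in the Plvap values was not tested.

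**Figure D3:**
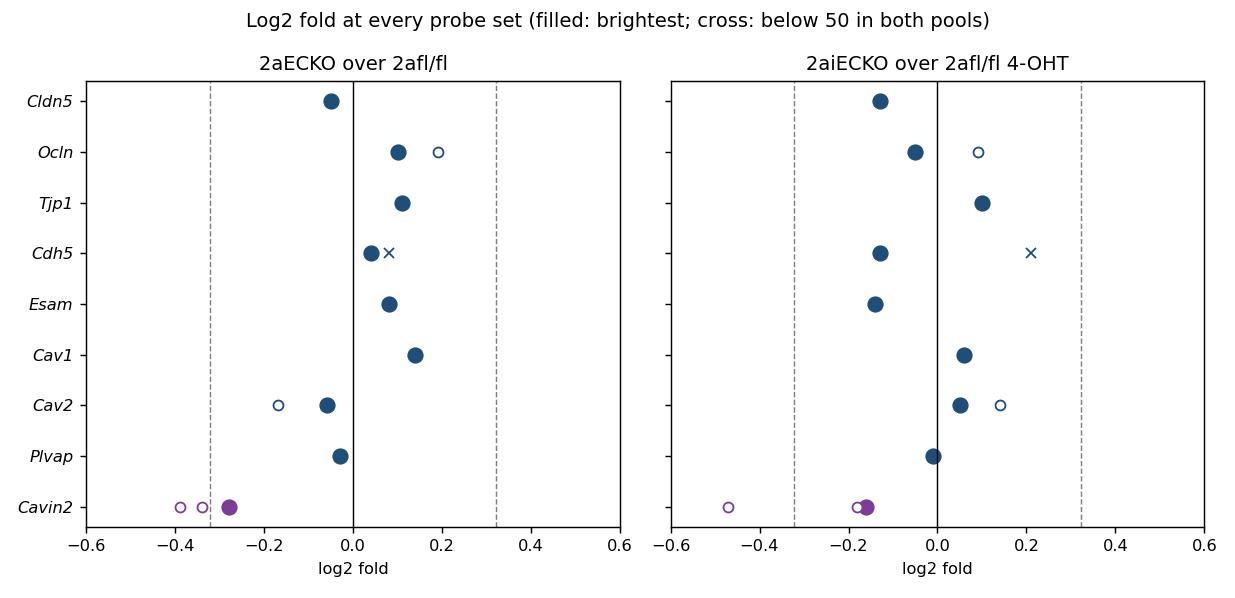
Log2 fold (horizontal axis) of each probe set of the 8 genes (blue) and of Cavin2 (purple) in 2aECKO over 2afl/fl and in 2aiECKO over 2afl/fl 4-OHT; each point is 1 probe set on 1 pooled array per group, filled for the brightest, crossed where both pools are below 50, and dashed lines mark folds of 1.25 and 0.8. All points of the 8 genes lie between the dashed lines, while Cavin2 has 2 of 3 points at or below the lower line in 2aECKO and 1 of 3 in 2aiECKO.

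Across the pairs the 8 genes were also compared between the controls after quantile normalization over all 4 arrays. The log2 difference of 2afl/fl 4-OHT minus 2afl/fl lay between -0.08 for Plvap and 0.15 for Ocln and Esam at the brightest probe sets, with Cldn5 at 0.09, Cdh5 at 0.08, Tjp1 at 0.13, Cav1 at 0.12 and Cav2 at -0.03. Over 12438 genes this difference had a robust SD of 0.24, and at the brightest probe sets all 8 lay within it. The dimmer probe sets of Ocln and Cav2 lay outside it, at 0.41 and 0.45, and that of Cdh5 lay within it at 0.02. Age, treatment with 4-OHT and array scale differ together here and cannot be told apart.

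Among the other genes of caveolae, Cavin2 stood below its control in both knockouts at every probe set. Cavin2 encodes a coat protein that shapes caveolae and is abundant in endothelium, and it was named as the lowest gene of its list. Its brightest probe set gave 140 in 2aECKO and 171 in 2afl/fl, a log2 fold of -0.28, just short of the fold for lower genes. The next gave 89.1 in 2aECKO and 113 in 2afl/fl, a log2 fold of -0.34, and the last gave 87.9 in 2aECKO and 115 in 2afl/fl, a log2 fold of -0.39, both past it. The 3 probe sets thus moved together, with a mean log2 fold of -0.34 ± 0.05 (SD over 3 probe sets of the same pools, which are not replicates). In 2aiECKO the signals were 118, 64.1 and 51.0, against 133, 72.5 and 70.5 in 2afl/fl 4-OHT, and the log2 folds -0.16, -0.18 and -0.47, a mean of -0.27 ± 0.17 (SD over 3 probe sets), with the last past the fold. That last probe set is of the less specific design named _s_at. Of the 7 matched genes of the caveola list 0 were higher and 0 lower in either knockout at the brightest probe set. With 7 genes, a count of 0 is near the share of all genes past the fold. The median of the list was 0.00 in 2aECKO and 0.07 in 2aiECKO, and the other extremes were Cavin1, the coat protein that all caveolae need, at 0.13 in 2aECKO and 0.07 in 2aiECKO, and Cavin3 at -0.04 and 0.12.

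Of 15 further tight junction genes, 0 were higher and 0 lower in either knockout, and the list medians were 0.02 in 2aECKO and 0.08 in 2aiECKO. Of all genes that met the signal limit, 2.24 percent were higher and 1.76 percent lower in 2aECKO. In 2aiECKO the shares were 1.90 and 0.604 percent. A count of 0 in a related list of 15 genes or fewer is thus near that background. It does not show that the genes of the list are unchanged. A count of 1 in such a list was not tested against these shares. Cgn, which encodes cingulin, a cytoplasmic partner of ZO-1, stood at 0.24 on the log2 scale in 2aECKO and at -0.13 in 2aiECKO, the highest and the lowest of the 13 with a mean signal of at least 50. Its second probe set, below 50 in all 4 pools, gave -0.02 in 2aECKO and 0.08 in 2aiECKO. Among the same 13, Cldn12 was the lowest in 2aECKO at -0.13, and Cldn11, the claudin of myelin, the highest in 2aiECKO at 0.30. Of 11 further adherens junction and endothelial adhesion genes, 1 passed the fold in 2aECKO, upward, and 0 passed it in 2aiECKO, with medians of 0.03 in 2aECKO and 0.04 in 2aiECKO. The higher gene was Ctnna1, alpha-catenin, which links cadherins to actin in most cell types, with 935 in 2aECKO and 737 in 2afl/fl, a log2 fold of 0.34, and 0.31 at its next probe set. In 2aiECKO Ctnna1 had 766, against 660 in 2afl/fl 4-OHT, a log2 fold of 0.22. Astrocytes also use alpha-catenin, and their 8 markers had medians of 0.23 in 2aECKO and 0.30 in 2aiECKO, with summed signals of 24243 in 2aECKO and 21237 in 2afl/fl, and of 18025 in 2aiECKO and 14922 in 2afl/fl 4-OHT; their part was not tested.

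Receptor-mediated and clathrin transport had 15 matched genes, of which 1 was higher in 2aECKO, 0 were higher in 2aiECKO and 0 were lower, with medians of -0.02 in 2aECKO and -0.01 in 2aiECKO. The higher gene was Dab2, an endocytic adaptor also made by fibroblasts and macrophages, with 355 in 2aECKO and 277 in 2afl/fl, a log2 fold of 0.36. Its next probe set gave a log2 fold of 0.44 in 2aECKO, and those of lower signal gave 0.05 and 0.00. In 2aiECKO Dab2 had 223, against 187 in 2afl/fl 4-OHT, a log2 fold of 0.25. Of 14 genes of leaky, sprouting or activated endothelium, 0 passed the fold in 2aECKO, where 8 of 10 genes of sufficient signal lay above 0 and the median was 0.14. Fibroblasts, astrocytes and choroid plexus also make genes of this list. In 2aECKO their markers had medians of 0.16, 0.23 and 0.27, with 3 of 8, 1 of 8 and 3 of 8 higher. In 2aiECKO those marker medians were 0.09, 0.30 and 0.15, with 1 of 8, 3 of 8 and 1 of 8 higher. The part of these cells was not tested. For the list of leaky, sprouting or activated endothelium the median in 2aiECKO was -0.02, and 1 gene was lower. That gene was Vwf, the clotting factor stored in endothelium, with 70.4 in 2aiECKO and 102 in 2afl/fl 4-OHT, a log2 fold of -0.53. In 2aECKO Vwf had 136, against 134 in 2afl/fl, a log2 fold of 0.02.

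Of 11 genes of Wnt signalling and transcription in barrier endothelium, 0 were higher and 0 lower in either knockout, and the medians were 0.01 in 2aECKO and 0.02 in 2aiECKO. Reck, a coreceptor for Wnt7 ligands that mural cells also make, was the highest in both, at 0.27 in 2aECKO and 0.30 in 2aiECKO. The lowest were Fzd4, the Wnt receptor of brain vessels, at -0.22 in 2aECKO, with -0.22 at its next probe set, and Sox18, an endothelial transcription factor, at -0.28 in 2aiECKO. Of 10 vascular basement membrane genes 0 passed the fold in either knockout, and the median was 0.12 in 2aECKO and -0.07 in 2aiECKO. In 2aECKO they lay between -0.18 for Lamb1 and 0.17 for Lamc1, both laminin chains, at their brightest probe sets. Other probe sets with signals above 50 had the opposite sign in 2aECKO, at 0.02 and 0.13 for Lamb1 and -0.18 for Lamc1. In 2aiECKO they lay between -0.31 for Lama4, the laminin chain typical of endothelium, and 0.15 for Nid2, a nidogen. A dimmer probe set of Lama4, below 50 in both pools, gave 0.17. For the Wnt and the basement membrane list a count of 0 is near the share of all genes past the fold.

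**Figure D4:**
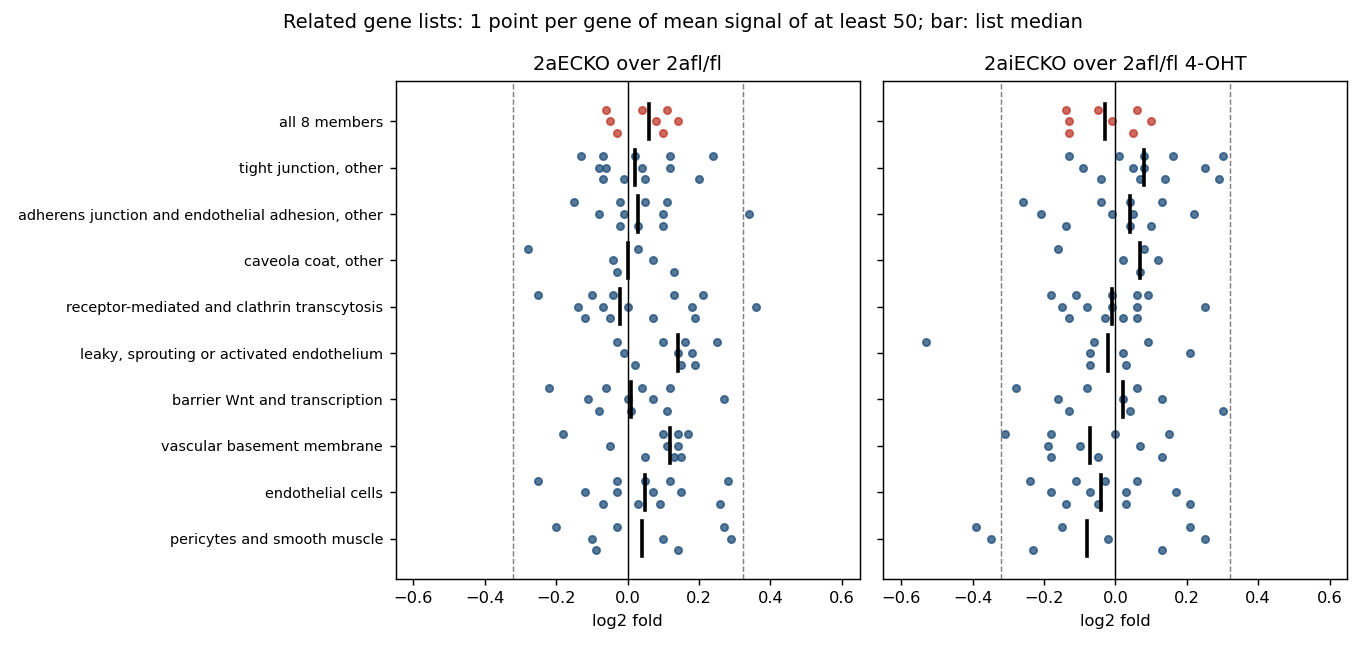
Log2 fold (horizontal axis) of the 8 genes (red), the 7 related lists and the endothelial and mural markers (blue) in 2aECKO over 2afl/fl and in 2aiECKO over 2afl/fl 4-OHT; each point is 1 gene with a mean signal of at least 50 on 1 pooled array per group, black bars are list medians and dashed lines mark folds of 1.25 and 0.8. Among the 8 genes and the 7 related lists, Ctnna1 and Dab2 lie beyond the right line in 2aECKO and Vwf beyond the left line in 2aiECKO.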

How the data were processed

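Cerebrum RNA was pooled per genotype and hybridised to 4 arrays. The authors deposited linear intensity values from RMA, which adjusts background and normalizes quantiles; the methods name the affy package in R and the submitters' processing notes name Partek 6.6, and the values do not settle which was used. The deposited intensity was converted to log2. The arrays hold 45101 probe sets, of which 34958 carry 1 symbol in the platform annotation, 932 several and 9211 are unnamed here; older symbols were brought up to date by gene identifier (RefSeq, GRCm38.p6). Sequences were matched by symbol for 5 of the 8 genes.

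The 8 genes, 7 related lists (83 of 87 genes matched) and 9 marker lists (74 of 80 matched) were chosen with earlier results of these data known. Named besides the 8 and Mfsd2a were genes of a related list past the fold or, failing any, its highest and lowest gene with a mean signal of at least 50; other genes were chosen after their values were seen. The genes nearest in pattern were to be named only for members past the fold, and 0 were.

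The settings tried besides were averaging over a gene's probe sets, leaving out probe sets named _s_at or _x_at, removing a lowess trend (fraction 0.3), centring, quantile normalization over all 4 arrays, that normalization with controls exchanged or averaged, a minimum signal of 100 or none, and a fold of 1.5. Python 3.11.15, numpy 2.4.6, pandas 2.3.3, scipy 1.17.1, statsmodels 0.14.6 and matplotlib 3.10.9 were used.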

Additional observations from a re-analysis of the deposited data

Results flagged for a closer look

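Of the 8 genes, 4 had log2 folds of opposite sign in the knockouts, with 1 pool per group, so the difference was not tested. Signs were opposite in 34.2 percent of the 11902 genes whose mean signal reached 50 in both pairs. Over the mean of probe sets Ocln and Cdh5 were above 0 in both knockouts, which leaves Esam and Cav2. Esam stood at 0.08 in 2aECKO and -0.14 in 2aiECKO, a difference of 0.22. Cdh5 stood at 0.04 in 2aECKO and -0.13 in 2aiECKO, a difference of 0.17. Ocln stood at 0.10 in 2aECKO and -0.05 in 2aiECKO, a difference of 0.15. Cav2 stood at -0.06 in 2aECKO and 0.05 in 2aiECKO, a difference of -0.11. The knockouts differ also in age, cre line and 4-OHT, which cannot be told apart from the difference.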

How the results depend on the processing

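The count of the 8 genes past the fold was 0 under all alternatives run. Their median fold moved by less than the robust SD over genes but not without changes of sign: with controls exchanged it was -0.03 in 2aECKO and 0.02 in 2aiECKO, and over the mean of probe sets it was 0.03 in 2aiECKO. Of 112 values of single genes of the 8, 104 moved by less than the robust SD over genes and 8 by more, 7 of them with controls exchanged and the other the mean of Cdh5 probe sets in 2aiECKO. The largest of these values was 0.24 in size. With controls exchanged, Ocln (-0.04), Tjp1 (-0.01), Cdh5 (-0.06), Esam (-0.08) and Plvap (0.04) changed sign in 2aECKO, and Ocln (0.10) and Esam (0.02) in 2aiECKO. With controls averaged, Cdh5 (-0.02), Esam (-0.001) and Plvap (0.001) changed sign in 2aECKO, and Ocln (0.03) in 2aiECKO. Ocln and Cdh5 in 2aiECKO also turned their signs over the mean of their probe sets, at 0.02 and 0.04. Among the related lists, the medians of the Wnt and transcription list moved to 0.37 in 2aECKO and -0.16 in 2aiECKO with controls exchanged and to 0.15 and -0.15 with controls averaged, and that of the tight junction list to 0.19 in 2aiECKO with controls exchanged. Counts over all genes moved more. Upward in 2aECKO they were 292 as reported, 1060 with controls exchanged, 459 with controls averaged and 38 at a fold of 1.5. Downward in 2aECKO they were 229 as reported, 2219 with controls exchanged, 579 with controls averaged, 142 at a minimum signal of 100, 483 with none and 13 at a fold of 1.5. Upward in 2aiECKO they were 227 as reported, 2088 with controls exchanged, 644 with controls averaged, 138 at a minimum of 100, 437 with none and 36 at a fold of 1.5. Downward in 2aiECKO they were 72 as reported, 46 over the mean of all probe sets, 1211 with controls exchanged, 357 with controls averaged, 41 at a minimum of 100, 309 with none and 8 at a fold of 1.5. Exchanged or averaged controls bring the difference between the controls into the fold by construction. No paired analysis was possible because each group has 1 array, and no array could be left out for the same reason.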

Other observations

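Markers of cells not described above gave these values, with 1 pool per group and no test. Of 8 neuronal markers 0 passed the fold in either knockout, with a median log2 fold in 2aECKO of -0.09 and in 2aiECKO of -0.04. Of 7 matched genes of the oligodendrocyte lineage 0 passed it, with medians of 0.06 in 2aECKO and 0.05 in 2aiECKO. Of 3 matched red cell genes, Alas2, the haem synthesis enzyme of red cell precursors, was higher in 2aECKO at a log2 fold of 1.05, Hba-a1 and Slc4a1, both below 50, stood at -0.09 and -0.10, and 0 passed the fold in 2aiECKO, where none had a mean signal of 50. Of 8 astrocyte markers 1 was higher in 2aECKO and 3 in 2aiECKO, with Gfap, the intermediate filament gene of astrocytes, at 0.89 in 2aECKO and 0.90 in 2aiECKO. Of 9 matched microglial markers 0 were higher and 2 were lower in 2aECKO, while 5 were higher in 2aiECKO. In 2aECKO their median was 0.00. Of the 8 with sufficient signal 4 lay above 0 and 4 below, between -0.46 for Tmem119 and 0.31 for C1qa. Emcn, an endothelial sialomucin, was the highest endothelial marker in 2aECKO at 0.28 and Tie1, an endothelial receptor, the lowest at -0.25, neither past the fold.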
